A study of Gossypium hirsutum with 6 samples.

Results

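The annotation of the upland cotton (*G. hirsutum*) genome, Gossypium_hirsutum_v2.1, describes 13 loci by the name or the best protein match of a probable polyamine transporter. The genes described here are 6 of these 13, out of 100562 listed loci, and were taken from a list of locus names selected on their measured difference between Put and CK. They are LOC107897497, LOC107914455 and LOC107949112, described after the Arabidopsis gene At1g31830, and LOC107907387, LOC107907531 and LOC107914133, described after At3g13620. RNA was sequenced from ovules of *G. hirsutum* cv. ZM24, wild type, taken from bolls on the day of anthesis and cultured in the dark for 2 d. The culture medium of 3 samples received 10 μmol/L putrescine (Put), the diamine made by the arginine decarboxylase route, and that of the other 3 samples received water (CK). The methods of the study state that ovules were divided at random into replicates, so the spread between samples may be technical and p-values measure only that spread.

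In plants, polyamines such as putrescine, spermidine and spermine are taken up and moved between compartments by proteins of the amino acid-polyamine-organocation superfamily. These carriers have many membrane-spanning segments, and cotransport with protons has been proposed for them. The Arabidopsis gene At1g31830, also called *PAR1*, encodes a member located at the Golgi, and its loss makes Arabidopsis resistant to the herbicide paraquat, which resembles polyamines in its charges. At3g19553 is known in Arabidopsis as *PUT5*. The cotton proteins are placed in this family by description and by an amino acid permease domain, and the transport activity of any of them was not measured here.

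The list holds the genes of this family that pass the comparison of Put with CK. In the fit used here, 11 of the 13 loci passed the filter on low counts, and the 6 listed genes were those with an adjusted p under 0.05 (edgeR's quasi-likelihood test with Benjamini-Hochberg adjustment over 51764 genes). Among all tested genes, 36.6% passed at the same threshold, 18.4% as higher with Put and 18.2% as lower. Since the response to Put chose the genes, their fold changes and their passes of the threshold are given as a description, and no p is read as evidence for a listed gene. The values at the threshold are given once. Of the listed genes, LOC107914455 lay nearest to the threshold, with an adjusted p of 0.0137. LOC107948548 on A06, with an adjusted p of 0.0577, was the nearest outside it, followed by LOC107898552 on D04 with 0.0703.

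The samples were first checked against markers of the labelled tissue. The 4 genes described as AGL11, a MADS-box protein of ovules, summed to between 361.7 and 405 FPKM (fragments scaled by gene length and library size, as deposited), whereas the 2 genes described as YABBY 4, a regulator of the outer integument, were at 0 in all samples. Of 16 tested genes described as markers of epidermis and fibers, 6 were higher and 6 lower with Put, and their summed level was between 2770 and 2853 FPKM in CK and between 8764 and 8947 in Put. This higher sum came mostly from the 6 genes described as protein E6, at a mean of 1500 FPKM in CK and 7421 in Put, whereas the median log2 fold change of the list was 0.0046. Of 13 tested ovule markers, 3 were higher and 9 lower, beside 36.6% passing among all tested genes. Their sums ran from 416.8 to 417.9 FPKM in CK and from 428.6 to 437.4 in Put. Most of this sum came from AGL11, at a mean of 363.7 FPKM in CK and 401.0 in Put. The 6 genes described as the AP2-like factor ANT fell from 26.5 to 13.8 FPKM, and the 5 described as BEL1 homolog from 27.3 to 18.7. Of 37 tested markers of green tissue, 1 was higher and 13 were lower, with sums from 191.7 to 195.2 FPKM in CK and from 157.4 to 162.2 in Put. These values moved with the conditions, and their part in the levels of the transporter genes was not tested. In whole ovules, fewer cells of a type and less RNA per cell cannot be told apart.

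The 3 listed genes of the At1g31830 type were lower with Put. LOC107897497 lies on chromosome A10 from 8653912 to 8657280 on the plus strand. Its level was 18.2, 17.0 and 18.1 FPKM in the CK samples and 15.2, 15.3 and 15.1 FPKM in the Put samples. All Put samples were below all CK samples, and the Put samples were almost equal. The log2 fold change of Put over CK was -0.22 (standard error 0.06), or 0.857 times the CK level.

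LOC107914455 lies on the plus strand of D10, from 16330925 to 16334246. Its level was 6.32, 6.42 and 5.95 FPKM in CK and 4.91, 4.94 and 5.44 FPKM in Put. The conditions did not overlap, and the third Put sample was the nearest to the CK samples. Its log2 fold change was -0.29 (standard error 0.10), or 0.819 times the CK level. The gene did not pass the threshold with DESeq2's test, without the second CK sample or without the first Put sample.

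LOC107949112 lies on A04 from 86503442 to 86505515 on the minus strand. It was at 5.49, 5.85 and 6.03 FPKM in CK and at 4.54, 4.59 and 4.32 FPKM in Put, so that every Put sample was below every CK sample. The log2 fold change was -0.37 (standard error 0.11), or 0.776 times the CK level. Differences between the responses of the 3 genes were not tested, because these responses chose them.

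The 3 listed genes of the At3g13620 type did not share a direction, with 2 higher and 1 lower with Put. LOC107907387 lies near the start of the D05 sequence, from 121940 to 123764 on the minus strand, and was at 5.03, 6.27 and 6.01 FPKM in CK and at 8.27, 8.25 and 9.12 FPKM in Put. Every Put sample was above every CK sample. The log2 fold change was 0.57 (standard error 0.10), or 1.48 times the CK level.

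LOC107907531 lies near the start of the A05 sequence, on the plus strand from 194979 to 196983. It was at 1.80, 2.37 and 1.86 FPKM in CK and at 2.91, 3.74 and 3.16 FPKM in Put. The second sample was the highest in each condition, and the conditions did not overlap. The log2 fold change was 0.70 (standard error 0.16), or 1.62 times the CK level.

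LOC107914133 on D08, from 14896287 to 14898115 on the plus strand, was the least abundant of the 6 genes and had the widest difference between the conditions. Its counts were 38, 72 and 40 read pairs in CK and 14, 9 and 17 in Put, and its level was 1.07, 1.99 and 1.13 FPKM in CK and 0.417, 0.291 and 0.541 FPKM in Put. The second CK sample stood above the other 2, and the standard deviation of the CK counts was 19.1 where counting alone gives 7.07. All Put samples were still below all CK samples. The log2 fold change was -1.74 (standard error 0.31), or 0.30 times the CK level, and without the second CK sample it was -1.39. On the scale of log2(FPKM + 1), which understates the change of low genes, it was -0.74.

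**Figure D1:**
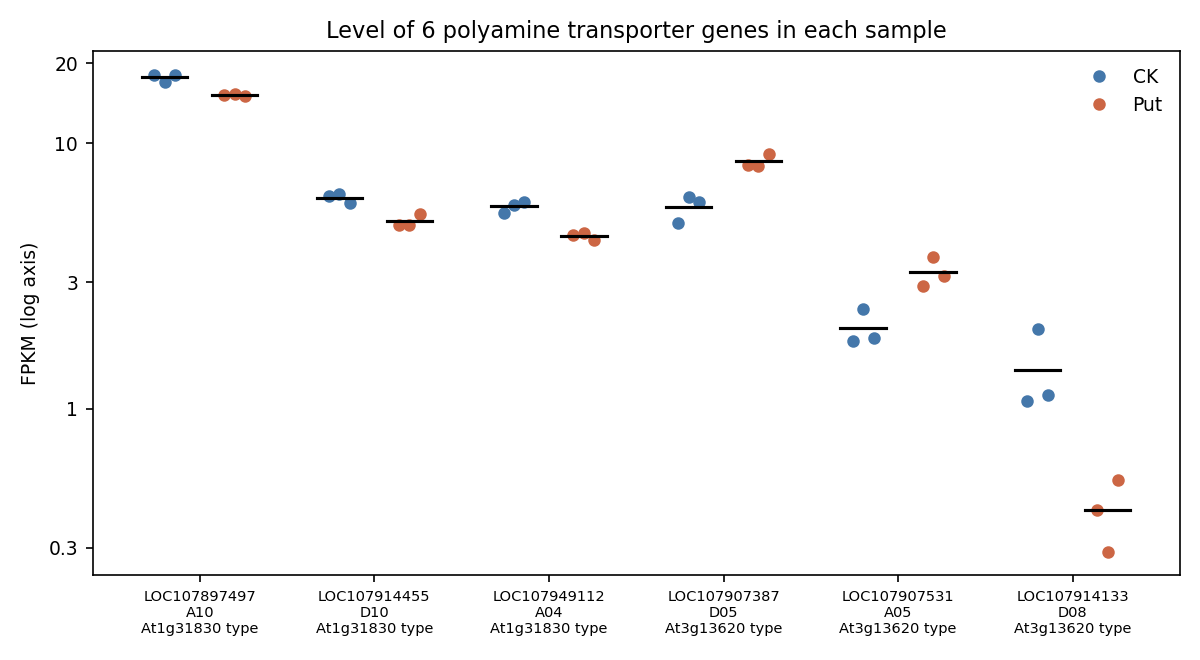
Level of each of the 6 genes in each sample, in FPKM on a log axis, with 3 CK samples (blue) and 3 Put samples (orange) per gene and a black line at the mean. The conditions do not overlap in any of the 6 genes: 4 are lower and 2 higher with Put, and LOC107914133 falls from a mean of 1.40 to 0.416 FPKM.

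All 6 listed genes had no overlap between the conditions, of which 2 were higher and 4 lower. Among all tested genes 45.4% had no overlap, 22.8% as higher with Put and 22.6% as lower. Nothing is read from this share, because the same contrast chose the genes.

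The levels of the listed genes were put in order within each condition, with FPKM compared between genes because it is scaled by length. Because the response to Put chose the genes, a change of order between the conditions follows in part from that choice. The 2 orders are given as a description. In CK, LOC107897497 was highest at 17.7 ± 0.656 FPKM (SD, n = 3), which is 2.85 times the level of LOC107914455 at 6.23 ± 0.245 FPKM. LOC107914455, LOC107949112 at 5.79 ± 0.273 FPKM and LOC107907387 at 5.77 ± 0.652 FPKM followed with overlapping ranges, so these neighbours did not differ beyond their spread. LOC107907531 at 2.01 ± 0.316 FPKM and LOC107914133 at 1.40 ± 0.516 FPKM also overlapped. LOC107897497 was higher in CK than 86.4% of all tested genes and LOC107914133 than 19.3%. In Put, LOC107897497 remained first at 15.2 ± 0.10 FPKM, and LOC107907387 stood second at 8.55 ± 0.495 FPKM, apart from LOC107914455 at 5.10 ± 0.30 FPKM. LOC107949112 was at 4.48 ± 0.145 FPKM, LOC107907531 at 3.27 ± 0.426 FPKM and LOC107914133 at 0.416 ± 0.125 FPKM in Put, and no neighbours overlapped there.

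The other 7 loci of the family did not pass in the main fit or were not tested there. LOC107898552 on D04, the remaining gene of the At1g31830 type, had 136, 99 and 126 counts in CK and 84, 80 and 91 in Put, with a log2 fold change of -0.34 (standard error 0.15). It did not pass with all samples, but without the second CK sample its log2 fold change was -0.47 and it passed. LOC107948548 on A06, of the At3g13620 type, had 9, 9 and 11 counts in CK and 12, 20 and 19 in Put. These conditions did not overlap and the log2 fold change was 0.97 (standard error 0.41), and it passed only without the first Put sample, among the alternatives tried.

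LOC107945590 on A08, with 4 to 15 counts per sample, and the pseudogene LOC107901989 on D06, with 2 to 13 counts, had too few counts to be tested. The second Put sample of LOC107901989, with 2 counts, was under the 3 counts that were set as the limit of detection. Of the 3 loci of the At3g19553 type, 0 passed in edgeR's test or with DESeq2, and 0 had an unadjusted p under 0.05 in edgeR. With limma 2 of the 3 were tested, and 0 passed. The protein-coding LOC107898792 on D04 showed a log2 fold change of -0.16 (standard error 0.19), the pseudogene LOC107945148 on A04 had -0.18 (standard error 0.39), and LOC107945149 on A04, annotated as a long non-coding RNA, had -0.02 (standard error 0.09). These last 2 loci overlap on opposite strands, and the strand setting of the counting is not given in the sources used here, so their reads cannot be told apart with certainty.

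**Figure D2:**
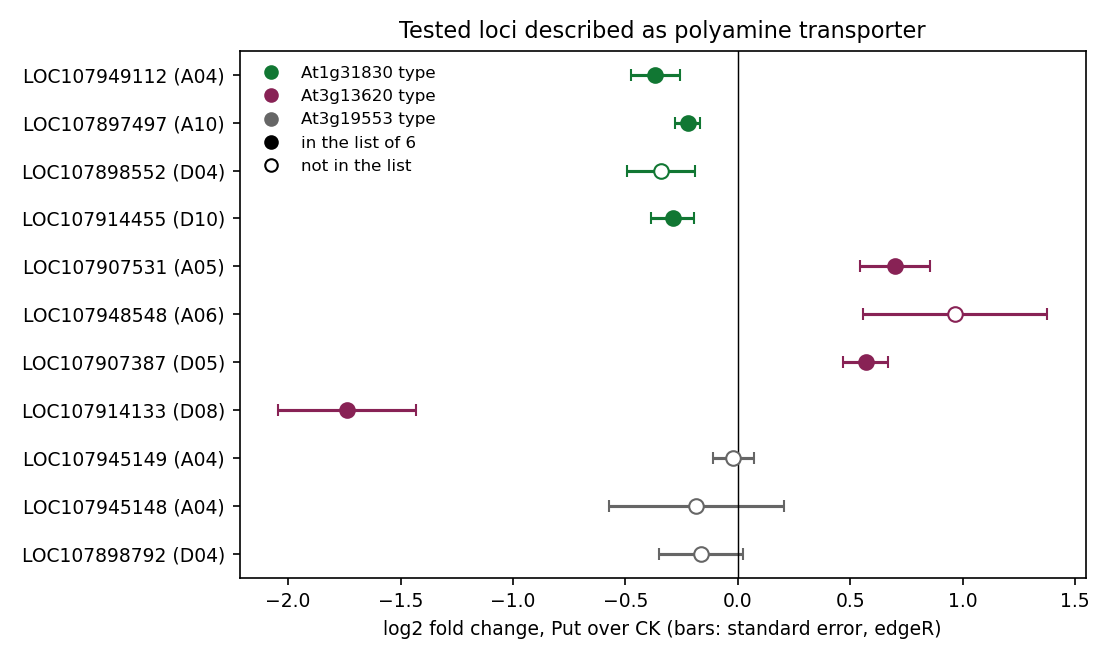
Log2 fold change of Put over CK (x axis) with its standard error for the 11 tested loci of the family, coloured by the Arabidopsis gene they are described after. Filled points are the 6 listed genes and open points the others. The 4 loci of the At1g31830 type lie between -0.37 and -0.22, whereas those of the At3g13620 type lie between -1.74 and 0.97.

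Summed over its loci, the At1g31830 type was at 32.9 ± 0.962 FPKM (SD, n = 3) in CK and 27.3 ± 0.291 FPKM in Put. The At3g13620 type was at 10.01 ± 1.45 FPKM in CK and 13.2 ± 0.845 FPKM in Put, and the At3g19553 type at 6.17 ± 0.199 and 5.87 ± 0.722 FPKM. The family as a whole summed to 49.1 ± 0.431 FPKM in CK and 46.4 ± 1.78 FPKM in Put. The share of the At1g31830 type in this sum was 69.0%, 64.5% and 67.7% in the CK samples and 60.7%, 58.4% and 57.5% in the Put samples. The share of LOC107907387 alone was 10.3%, 12.7% and 12.2% in CK and 18.6%, 17.7% and 19.0% in Put. These shares contain the genes that chose the list and are a description. The sums also include loci that are not protein-coding. In CK the long non-coding RNA LOC107945149 gave 3.87 FPKM and the pseudogene LOC107945148 0.42 FPKM of the At3g19553 type. The protein-coding LOC107898792 gave 1.88 FPKM. The At3g13620 type includes the pseudogene LOC107901989, at 0.26 FPKM in CK.

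Upland cotton carries an A and a D subgenome, and most genes have a homeolog on the other one. Copies on the A and D chromosome of one number with the same description were taken as pairs, since protein sequences were not used here. Among the 10 nearest loci on each side, long non-coding RNAs left out, the copies of LOC107949112 and LOC107898552 shared 9 descriptions, those on A05 and D05 shared 6, those on A08 and D08 shared 5, and LOC107897497 and LOC107914455 shared 3. On A08 and D08 and on A10 and D10 the shared descriptions include small nucleolar RNA R71, which is also shared on A06 and D06. The others on A10 and D10 are an aspartic proteinase nepenthesin-1-like and a filament-like plant protein. The pairing on A10 and D10 therefore has the least support from the neighbours. How reads that match both copies were assigned is not given in the sources used here, and counts could have been exchanged within a pair.

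Both members of the A10 and D10 pair and of the A05 and D05 pair are in the list. LOC107897497 exceeded LOC107914455 in 6 of 6 samples, with a mean log2 ratio of 1.54 ± 0.09 (SD, n = 6, exact sign-flip permutation test, two-sided, p = 0.03125, adjusted p = 0.03125 over the 2 pairs). LOC107907531 on A05 exceeded LOC107907387 on D05 in 0 of 6 samples, with a mean log2 ratio of -1.46 ± 0.18 (SD, n = 6, exact sign-flip permutation test, two-sided, p = 0.03125, adjusted p = 0.03125). This is the smallest p that 6 samples allow. The A copy was thus the more abundant one on chromosomes 10 and the D copy on chromosomes 5, in both conditions.

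Among the pairs that hold a listed gene, the balance of the copies differed between water and Put by less than the SD of the CK samples in 3. LOC107897497 held 74.0 ± 1.34% of the FPKM of its pair in CK and 74.9 ± 1.21% in Put (SD, n = 3). LOC107907531 held 25.8 ± 1.98% in CK and 27.7 ± 3.07% in Put. LOC107949112 held 64.7 ± 4.54% of the pair with LOC107898552 in CK and 64.2 ± 2.49% in Put. The pair on A08 and D08 behaved differently, with LOC107945590 at 20.9%, 13.4% and 21.8% in CK and at 38.9%, 33.1% and 49.6% in Put, and the conditions did not overlap. In this pair the counts of LOC107945590 were 9, 10 and 10 in CK and 8, 4 and 15 in Put, so the larger share went with the lower level of LOC107914133. The A06 and D06 pair, which holds no listed gene, did not overlap either. There LOC107948548 held 52.6%, 40.5% and 60.8% in CK and 62.8%, 90.8% and 78.9% in Put. Neither locus of this pair exceeded 20 counts in a sample. Beside LOC107898792 on D04, LOC107945149 held 67.3 ± 4.02% in CK and 69.55 ± 2.77% in Put, and LOC107945148 held 18.4 ± 3.21% and 18.4 ± 3.36%. The listed genes were chosen by their response to Put, and the shares in their pairs follow in part from that response. The shares are therefore a description, and their change with Put was not tested. No test of the level ratio was made for pairs with a single listed gene, because the higher copy is more likely to pass and to be listed.

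**Figure D3:**
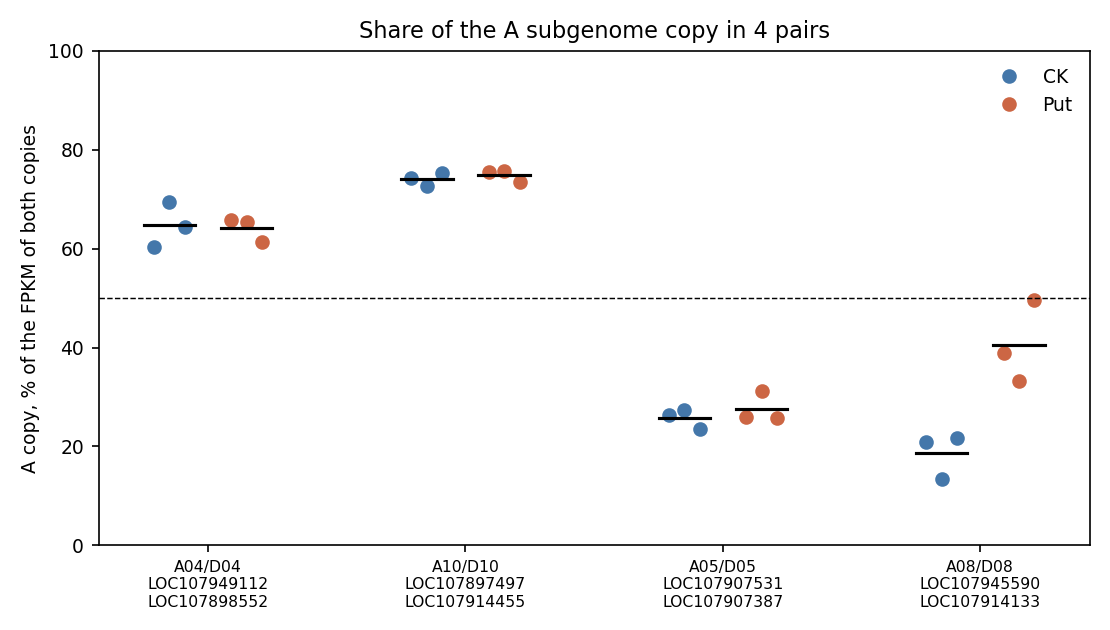
Share of the A subgenome copy in the FPKM of both copies, in percent, for the 4 pairs that hold a listed gene, with 3 CK samples (blue), 3 Put samples (orange), a black line at each mean and a dashed line at equal levels. The share is near 74% on A10 and D10 and near 26% on A05 and D05 in both conditions, and on A08 and D08 its mean is 18.7% in CK and 40.6% in Put.

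For 3 of the 6 listed genes, the nearest gene of polyamine metabolism was one described as arginine decarboxylase, at most 214 kb away. How often other genes lie this near to one was not counted. LOC107907387 on D05 is 42.2 kb from LOC107907383, described as arginine decarboxylase, with 7 listed loci between them. Its counterpart LOC107907531 on A05 is 67.7 kb from the arginine decarboxylase gene LOC107907525, with 6 loci between. On A04, LOC107949112 is 213.6 kb from LOC107949089, with 26 loci between. On D04 the unlisted LOC107898552 is 256 kb from LOC107898579, with 29 loci between. Both neighbours are described as arginine decarboxylase, but their levels were very low and they were not tested. LOC107949089 was at 0.106 FPKM in CK and 0.049 FPKM in Put, and LOC107898579 at 0.019 and 0.048 FPKM. The unlisted loci of the At3g19553 type had the same nearest genes. LOC107945149 and LOC107945148 were 647.8 and 652.5 kb from LOC107949089, and LOC107898792 was 668.4 kb from LOC107898579. For the other 3 listed genes the nearest gene of polyamine metabolism was at least 7456 kb away.

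The neighbours on A05 and D05 differed in direction from the transporter genes. LOC107907525 was at 5.71 ± 0.204 FPKM in CK and 4.67 ± 0.626 FPKM in Put (SD, n = 3), which is -0.28 on the log2 scale with a standard error of 0.10 (adjusted p = 0.0256, edgeR). LOC107907383 was at 5.48 ± 0.343 FPKM in CK and 4.48 ± 0.580 FPKM in Put, which is -0.29 with a standard error of 0.11 (adjusted p = 0.0290, edgeR). With DESeq2's test neither passed, at an adjusted p of 0.0839 for LOC107907525 and 0.0928 for LOC107907383, and neither passed with limma. Among up to 10 nearest loci on either side of the 6 listed genes, 7 to 13 were tested for each gene and 2 to 5 passed, beside 36.6% of all tested genes.

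The genes of polyamine metabolism were taken by description, as the pathway of the compounds that the listed genes are described to transport. Of 46 tested genes, 7 were higher with Put, 13 were lower and 26 did not pass, where 36.6% of all tested genes passed, with a median log2 fold change of -0.06 against 8.8e-04 over all tested genes. Of 6 tested arginine decarboxylase genes, which make agmatine from arginine, 5 were lower and 1 did not pass, and 3 passed with DESeq2 or with limma. Among the lower ones with a mean of at least 1 CPM, LOC107893794 on A13 had the largest decrease at -0.45 on the log2 scale (standard error 0.03, edgeR, adjusted p = 3.37e-21). The 2 genes of agmatine deiminase, the next enzyme towards putrescine, went opposite ways. LOC107953355 on D07 rose from 18.0 to 33.2 FPKM, or by 0.88 on the log2 scale (standard error 0.06, adjusted p = 1.01e-18), and LOC107926587 on A07 fell from 6.42 to 3.84 FPKM, at -0.74 on the log2 scale (standard error 0.12, adjusted p = 2.38e-06).

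Of the 3 tested genes of N-carbamoylputrescine amidase, which releases putrescine, 1 was higher, namely LOC107889178 with a log2 fold change of 0.26, which did not pass with DESeq2. The single tested genes of ornithine decarboxylase, of arginase and of spermidine hydroxycinnamoyl transferase did not pass. Of 6 tested genes of spermidine and spermine synthases, which add aminopropyl groups to putrescine and spermidine, 0 passed in edgeR's test, with DESeq2 or with limma, and 0 had an unadjusted p under 0.05. Of 7 tested genes of S-adenosylmethionine decarboxylase, which provides the aminopropyl group, 1 was higher and 3 lower, beside 36.6% passing among all tested genes. Those that passed with a mean of at least 1 CPM ran from LOC107893852 at -0.45 to LOC107916742 at 0.16. Of 2 tested thermospermine synthase genes 1 was higher, LOC107901009 at 0.30, and it passed neither with DESeq2 nor with limma.

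Among the enzymes that oxidize polyamines, 2 of 11 tested polyamine oxidase genes were lower and 9 did not pass, beside 36.6% passing among all tested genes, and the stronger decrease was that of LOC107932214 on D07 at -1.40 (standard error 0.19, adjusted p = 1.29e-08). Of 6 tested genes of copper amine oxidases, which oxidize putrescine, 3 were higher and 2 lower. Among those that passed with a mean of at least 1 CPM, LOC121214757 on A02 had the highest log2 fold change at 0.92 (standard error 0.17, adjusted p = 2.28e-05). LOC107895118 on A08 had the lowest at -1.69 (standard error 0.17, adjusted p = 2.86e-12).

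The genes whose pattern over the 6 samples was most like that of each transporter gene were sought among 34961 described genes with a mean of at least 1 CPM, by Pearson's r of log2 CPM. LOC107897497 was closest to LOC121203075, described as DNA repair RAD52-like protein 2, and to LOC107887022, a Dof zinc finger protein. LOC107914455 was closest to LOC107898706, described as ubiquitin ligase ARI2, and to LOC107946479, the exchange factor SPIKE 1. LOC107949112 was closest to LOC107898968, the O-acyltransferase WSD1, and to LOC107946103, the demethylase JMJ25. LOC107907387 was closest to LOC107938665, the isomerase CYP21-4, and to LOC107945511, a Rab7-like protein. LOC107907531 was closest to LOC107910475, described as MRN complex-interacting protein, and to LOC107924556, ribosomal protein L18a. LOC107914133 was closest to LOC107946256, an ALBINO3-like protein, and to LOC107920225, described as a CcdA-like protein of cytochrome c biogenesis. The r of these 12 genes was between 0.995 and 1.000, but between 2312 and 4106 genes had an r over 0.9 with each transporter gene. All points share 6 libraries in 2 conditions, so these likenesses describe the samples.

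**Figure D4:**
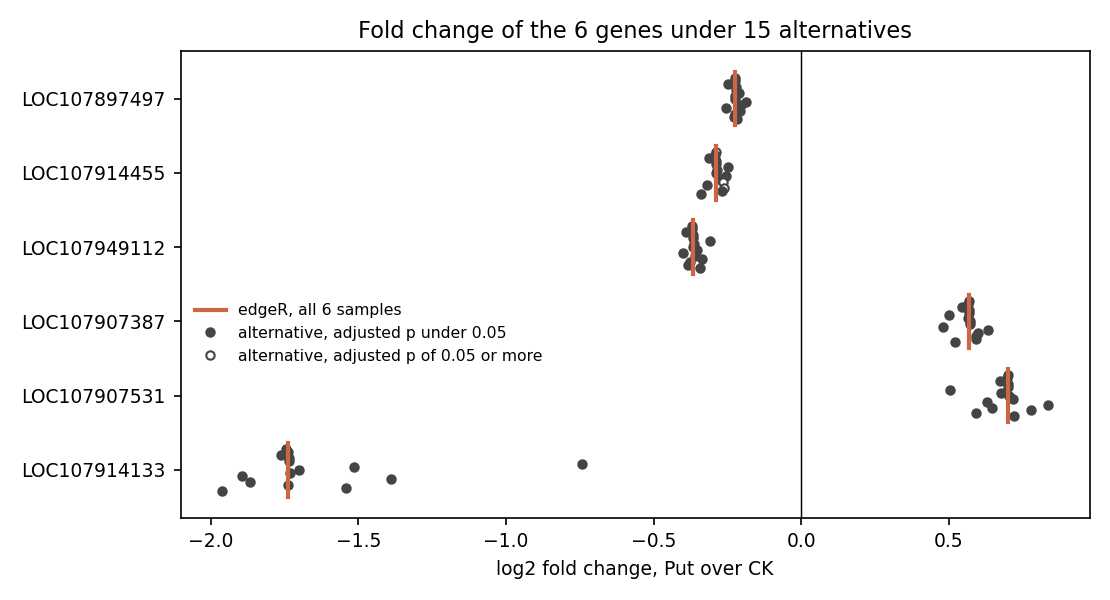
Log2 fold change of Put over CK for the 6 listed genes, with edgeR on all samples (orange line) and under 15 alternatives (points, filled where the adjusted p was under 0.05). No alternative turns a direction. LOC107914455 is past the threshold in 12 of 15, the other 5 genes in 15 of 15, and LOC107914133 spreads from -1.96 to -0.74.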

How the data were processed

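For each gene of Gossypium_hirsutum_v2.1 the authors deposited the raw count of read pairs and FPKM. The deposited FPKM equal the counts divided by gene length and by a library size proportional to DESeq2's size factor. HISAT2 2.0.5 is named in the submitters' processing notes. The counting program and its strand setting are not given in the sources used here. The totals were between 16974557 and 19463059 counts per sample, and 3 counts were set as the limit of detection, which covers counting error only. Chromosome names came from the RefSeq gene table, in which 99451 of the 100562 loci were matched by gene ID, the 6 listed genes included.

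Counts were tested in R 4.3.3 with edgeR 4.0.16 (filterByExpr, TMM, quasi-likelihood test, Benjamini-Hochberg adjustment, adjusted p under 0.05). The standard error given with an edgeR fold change is derived from that test. It is the absolute log2 fold change divided by the square root of the F statistic. Alternatives were DESeq2 1.42.0 and limma 3.58.1, the latter on FPKM of genes with a mean of at least 0.5 after adding 1 or 0.1 and taking log2. The others were other normalizations and filters, offsets that follow gene length, the replicate number as a block and leaving out each sample. Tests were checked on simulated counts. Level ratios within homeolog pairs were tested by exact sign-flip permutation.

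The members and lists were chosen with earlier results of these data known. The rule for named genes took the 6 listed genes, all other loci described as polyamine transporter, the 2 genes most like each listed gene, and in each list the gene with the highest and the one with the lowest log2 fold change among those that passed with a mean of at least 1 CPM. Pairs were to be defined by protein identity, and description and chromosome were used instead. Pathway genes close to the listed genes and the neighbouring loci were named after their values were seen.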

Additional observations from a re-analysis of the deposited data

How the results depend on the processing

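Of the 13 loci of the family, 6 passed in the main fit and in every alternative except DESeq2's test, where 5 passed without LOC107914455. Without the second CK sample LOC107914455 (log2 fold change -0.27) was replaced by LOC107898552 (-0.47), and without the first Put sample (-0.26) by LOC107948548. No listed gene changed direction. Without a replicate, the log2 fold change of LOC107914133 was between -1.96 and -1.39. Over all genes, 18936 passed in the main fit, 14646 with DESeq2's test and between 16777 and 16958 without a replicate. Of the polyamine metabolism genes 20 passed in the main fit and between 15 and 21 in the alternatives. The replicate number as a block gave 18661 genes and the same number of family loci, 6. The deviations of same-numbered samples from the means of their conditions correlated at -0.005, -0.009 and -0.013. The labels do not say whether same-numbered samples were matched, and these values cannot settle it. The mean log2 ratio of LOC107897497 over LOC107914455 was between 1.53 and 1.57 without a replicate, and that of LOC107907531 over LOC107907387 between -1.52 and -1.41. With 5 samples the smallest possible p is 0.0625, so these fits could not pass. Without division by gene length the ratios were 1.59 and -1.32. Low counts limit the values of LOC107914133, and more so those of LOC107948548, LOC107945590, LOC107945148 and LOC107901989, which had at most 20 counts in any sample.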

Other observations

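Other transporters of amines and cationic amino acids included both higher and lower genes with Put. Cationic amino acid transporters belong to the same superfamily as the polyamine carriers. Of 17 tested genes of these, 5 were higher, 3 lower and 9 did not pass, beside 36.6% passing among all tested genes. Their median log2 fold change was 0.02. LOC107938512 on A03, described as cationic amino acid transporter 1, rose from 9.64 ± 0.484 to 25.9 ± 0.936 FPKM (SD, n = 3), which is 1.43 on the log2 scale with a standard error of 0.06 (adjusted p = 2.16e-28, edgeR). LOC107913630 on D11, described as the vacuolar cationic amino acid transporter 4, had -0.26 (standard error 0.06, adjusted p = 7.13e-04).

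Among all tested genes 36.6% passed, and this share stands beside each count that follows. Of 10 tested organic cation and carnitine transporter genes, 2 were higher and 4 lower, with a median of -0.12. Those that passed with a mean of at least 1 CPM ran from LOC121211257 on A12 at -0.86 (standard error 0.19, adjusted p = 1.84e-04) to LOC107934642 on A06 at 0.54 (standard error 0.07, adjusted p = 1.30e-08). Of 5 tested genes of the amino acid permease BAT1, 1 was higher and 2 lower. Among these, LOC107899001 on A04 had 0.32 (standard error 0.10, adjusted p = 0.00541) and LOC107888488 on A09 had -1.39 (standard error 0.30, adjusted p = 1.88e-04). Of 7 tested genes of GABA transporters, which carry a breakdown product of putrescine, 1 was lower and 6 did not pass. The lower one, LOC107927542 on D04, was at -0.64 (standard error 0.22, adjusted p = 0.0186) and did not pass with DESeq2 or limma. Each of these lists was chosen with results of these data known, and none was tested as a list.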
